A study of Rattus norvegicus with 12 samples.

Results

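Collagens are the proteins of the extracellular matrix that are built from 3 chains wound into a triple helix, and each chain is the product of its own gene. The chains were taken as every gene of the expression table whose name is Col, a type number, the letter a and a chain number. The pattern matched 43 names. One of them, Col4a3bp, encodes a ceramide transfer protein and was set aside, which left 42 collagen chains among 23526 named genes. Of these, 33 chains reached at least 0.1 TPM (a transcript level scaled for transcript length and library size) in at least 3 of 12 libraries. They were 9 of 10 fibrillar chains, 6 of 6 basement membrane chains, 6 of 9 chains of the FACIT class and 12 of 17 other chains. The chains Col1a2, Col6a3 and Col21a1 were not analysed here.

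RNA was measured in the free walls of the right ventricle (RV) and the left ventricle (LV) of 6 adult male Sprague-Dawley rats aged 3 to 4 months. Of these, 3 rats were exposed to hypoxia (10% O2 in a hypobaric chamber) for 2 weeks, which is a model of RV hypertrophy without RV failure, and 3 rats were housed in room air. The groups were the RV in normoxia (RVN), the LV in normoxia (LVN), the RV in hypoxia (RVH) and the LV in hypoxia (LVH), with 3 libraries each. Both ventricles of a heart were sequenced, and libraries are numbered by rat: 1, 2 and 3 in normoxia, and 1, 2 and 4, which were different animals, in hypoxia.

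In the heart, fibrillar collagens form the load-bearing fibres between myocytes, and most are made by fibroblasts. Chains of type IV form the sheet of the basement membrane around myocytes and vessels. FACIT collagens sit on the surface of fibrils, and the other classes include the beaded filaments of type VI, the network of type VIII, membrane-spanning chains and the multiplexins. Fibrosis is an excess of this matrix. The tissue was whole wall, so more cells of a type and more RNA per cell cannot be told apart in any value given here.

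The genes of type IV lie in head-to-head pairs that are transcribed away from each other, and the stretch between the starts is therefore the promoter region of both. In the rat assembly GRCr8 of RefSeq the annotated starts were 76 bases apart for Col4a1 and Col4a2, 412 bases apart for Col4a3 and Col4a4, and 1414 bases apart for Col4a5 and Col4a6. The stretch shared by Col4a2 and Col4a1 is shown because these were the most abundant basement membrane chains. The 250 bases before the starts of Col4a3 and Col8a1 are shown because these chains had among the most negative and the most positive fold changes with hypoxia in the RV. All are on the plus strand, written 5′ to 3′, and capitals mark the GC box GGGCGG or its reverse complement CCGCCC.
Col4a2 to Col4a1, chr16:84885521-84885596: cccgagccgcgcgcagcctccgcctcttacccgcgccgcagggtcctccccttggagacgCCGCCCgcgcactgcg
Col4a3, chr9:91323740-91323989: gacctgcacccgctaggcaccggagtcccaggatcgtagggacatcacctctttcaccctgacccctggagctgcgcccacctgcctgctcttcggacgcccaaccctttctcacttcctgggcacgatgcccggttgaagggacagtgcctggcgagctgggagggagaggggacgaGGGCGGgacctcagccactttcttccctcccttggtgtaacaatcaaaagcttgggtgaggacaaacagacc
Col8a1, chr11:56246532-56246781: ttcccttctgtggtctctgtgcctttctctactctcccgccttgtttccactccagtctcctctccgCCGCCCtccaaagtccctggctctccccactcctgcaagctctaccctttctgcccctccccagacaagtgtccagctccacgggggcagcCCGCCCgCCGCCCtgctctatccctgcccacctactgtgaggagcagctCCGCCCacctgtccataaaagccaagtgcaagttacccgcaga

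Of the 33 reported chains, 25 had a promoter window in the RefSeq table, from 250 bases before to 50 bases after the start. Col3a1, Col1a1, Col6a2, Col14a1, Col12a1, Col9a3, Col22a1 and Col25a1 had none, so the shares below leave them out. On either strand, GGGCGG was found in the windows of 19 chains (76%), against 33.1% of all 33469 windows of this length. CCAAT was found in 7 (28%, against 37.5%) and TATAAA in 2 (8%, against 14.2%). ACGTG, 1 form of the core of the hypoxia response element, was found in 1 (4%, against 19.3%), which was Col4a5. Other forms of that core were not searched. No searched motif contains another, but windows of genes in a pair can overlap, so 1 match can be counted for both. These are matches of letters and not measured binding sites. The Col8a1 stretch held 4 GC boxes, and the stretch between Col4a2 and Col4a1 held 1.

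Total estimated counts ranged from 21468274 to 39991848 per library. Cardiac myocyte markers summed to between 30909 and 42770 TPM in every library, and 1 of the 10 markers, Ttn, was not analysed here. Fold changes were fitted on estimated counts scaled by TMM, which sets the median gene near 0, and without that scaling the typical gene was shifted, with a median of 0.187 on the log2 scale for RVN over LVN, 0.129 for RVH over LVH, 0.121 for RVH over RVN and 0.173 for LVH over LVN. They come from a single edgeR quasi-likelihood model for the 12 libraries, with p adjusted over all 13756 genes tested by the Benjamini-Hochberg procedure. A chain is called at an adjusted p below 0.05. Of the reported chains, 24 passed the filter on low counts. The comparisons share libraries, so their results are not independent of each other.

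Among the chains analysed, most collagen transcripts were from a few genes. Col1a2, Col6a3 and Col21a1 were not analysed, so every rank, sum and share given here leaves them out. The 6 most abundant of the chains analysed were Col3a1, Col4a1, Col6a2, Col1a1, Col6a1 and Col4a2. They made up between 83.2% and 88.5% of the summed TPM of the reported chains in a library. The sum over the 33 chains was 488 ± 48.2 TPM in RVN (mean ± SD, n = 3), 327 ± 29.2 in LVN, 1025 ± 381 in RVH and 544 ± 247 in LVH. Each RVN library was above each LVN library, and each RVH library was above each RVN library. The LVH libraries, at 822, 347 and 464 TPM, overlapped both normoxic groups and RVH.

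The fibrillar share of that sum was 53.6% ± 3.40 in RVN, 43.7% ± 2.10 in LVN, 62.6% ± 7.25 in RVH and 51.4% ± 4.27 in LVH (SD, n = 3). The basement membrane share was 21.0% ± 2.96 in RVN, 30.2% ± 2.51 in LVN, 18.6% ± 5.82 in RVH and 25.0% ± 3.01 in LVH. In normoxia the shares of these classes did not overlap between the ventricles, whereas in hypoxia they did, for the fibrillar chains (54.2% in RVH 4, 56.2% in LVH 1) and for the basement membrane chains (25.3% in RVH 4, 21.9% in LVH 1). The FACIT chains together held between 1.74% and 2.94% of the collagen TPM in every library. These sums and shares are descriptions without a test, and they leave out Col1a2, Col6a3 and Col21a1.

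**Figure D1:**
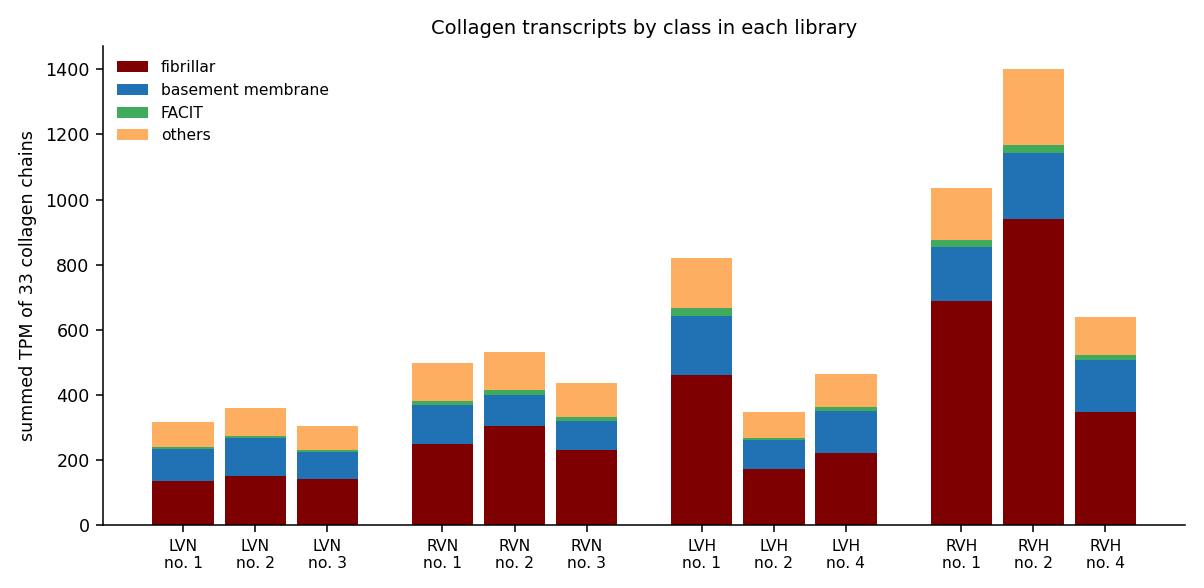
Summed TPM of the 33 reported collagen chains in each of 12 libraries, stacked by class; libraries are ordered by group and labelled with the number of the rat within its exposure. RVH 2 had the largest sum at 1401 TPM and LVN 3 the smallest at 306 TPM.

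Col3a1, the single chain of type III collagen that forms thin, compliant fibrils, was the most abundant of the chains analysed in all 12 libraries. Its TPM was 176, 219 and 165 in RVN 1, 2 and 3, and 93.9, 103 and 101 in LVN. In hypoxia it was 533, 739 and 263 in RVH 1, 2 and 4, and 327, 124 and 158 in LVH. RVH lay above RVN and RVN above LVN with no overlap, and LVH also lay above LVN without overlap.

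Col1a1, the major chain of type I collagen that gives thick fibrils their stiffness, followed the same order of libraries in hypoxia. Its TPM was 41.2, 52.3 and 36.9 in RVN, 21.3, 26.3 and 23.1 in LVN, 101, 136 and 48.9 in RVH, and 81.8, 29.6 and 35.9 in LVH. RVH 4 was below RVN 2, so the RV groups overlapped, while LVH lay above LVN.

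Type V collagen nucleates fibrils and sets their diameter, and its chains were lower. Col5a2 was at 15.05, 15.6 and 12.3 TPM in RVN, 10.0, 10.8 and 7.91 in LVN, 26.9, 33.3 and 17.5 in RVH, and 25.3, 9.31 and 13.0 in LVH. Col5a1 ranged from 5.15 to 20.7 TPM over the 12 libraries, and Col5a3 from 2.68 to 7.94. For Col5a2 and Col5a1 the lowest library was in the LV and the highest was RVH 2.

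The remaining fibrillar chains were scarce. Col27a1 was between 0.271 and 1.49 TPM, Col24a1 between 0.360 and 0.868, Col11a2, known from cartilage fibrils, between 0.191 and 0.644, and Col11a1 between 0 and 0.225. Col24a1, which resembles the fibrillar chains of invertebrates, ran against the abundant ones: it was 0.594, 0.673 and 0.868 TPM in RVN, 0.687, 0.672 and 0.820 in LVN, 0.525, 0.536 and 0.458 in RVH, and 0.414, 0.360 and 0.599 in LVH. All 6 hypoxic libraries lay below the 3 normoxic libraries of the same ventricle.

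Col4a1 and Col4a2 assemble into the type IV trimer found in nearly every basement membrane. Col4a1 was at 56.8, 46.8 and 41.1 TPM in RVN, 50.6, 59.5 and 42.0 in LVN, 94.2, 116 and 88.4 in RVH, and 96.5, 49.3 and 66.5 in LVH. Col4a2 was at 41.2, 31.8 and 31.2 TPM in RVN, 33.1, 40.6 and 27.7 in LVN, 51.0, 62.9 and 55.4 in RVH, and 60.6, 27.4 and 45.3 in LVH. For both, RVH lay above RVN with no overlap, and the normoxic ventricles overlapped.

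The other type IV chains form trimers of more restricted membranes, such as that of the kidney glomerulus. Col4a4 was between 4.35 and 11.2 TPM, Col4a5 between 5.88 and 14.4, Col4a3 between 0.861 and 2.58, and Col4a6 between 0.130 and 0.495. Col4a3 was at 2.09, 2.46 and 2.05 TPM in RVN, 1.51, 2.58 and 1.38 in LVN, 1.40, 1.80 and 1.31 in RVH, and 1.82, 0.861 and 2.06 in LVH. RVH was below RVN without overlap for Col4a3, and the LV groups overlapped.

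Among FACIT chains, Col14a1, which binds fibrils near the cell surface, was between 4.41 and 17.2 TPM, and Col16a1 between 1.28 and 5.80. Col12a1, a fibril-associated chain of tissues under tension, was at 0.209, 0.226 and 0.141 TPM in RVN, 0.154, 0.233 and 0.147 in LVN, 0.714, 0.678 and 0.370 in RVH, and 1.63, 0.219 and 0.293 in LVH. Its RVH libraries lay above RVN, whereas in LVH 1 library stood well above the others. Col9a3 was between 0 and 0.736 TPM, Col20a1 between 0.0345 and 0.465, and Col22a1, of tissue junctions, between 0 and 0.308.

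Col6a1 and Col6a2 join in the beaded filaments of type VI, which lie next to basement membranes. Col6a1 was at 46.3, 45.7 and 44.2 TPM in RVN and 29.8, 34.1 and 29.7 in LVN, and between 30.3 and 84.0 in hypoxia. Col6a2 was at 52.7, 57.1 and 46.9 in RVN and 33.7, 39.9 and 34.2 in LVN, and between 40.1 and 103 in hypoxia. Both lay above LVN in all RVN libraries, and so did Col6a6, an alternative chain of type VI, at 1.11, 1.44 and 0.779 TPM against 0.188, 0.686 and 0.363.

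Type VIII collagen is a short-chain network collagen of vessel walls. Col8a1 was at 4.75, 4.30 and 4.00 TPM in RVN, 4.77, 2.74 and 4.04 in LVN, 16.9, 24.5 and 6.92 in RVH, and 11.5, 2.61 and 3.53 in LVH. Its partner Col8a2 was at 0.791, 0.539 and 0.838 in RVN, 0.587, 0.586 and 0.637 in LVN, 2.22, 4.48 and 0.701 in RVH, and 3.02, 0.571 and 1.06 in LVH. For Col8a1 all RVH libraries were above all RVN libraries, and for Col8a2 RVH 4 fell among them.

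The other chains with a fitted value were Col18a1, the source of endostatin, at 3.36 to 13.6 TPM, Col13a1, a membrane-spanning chain, at 0.0948 to 1.26, and Col17a1, known from hemidesmosomes, at 0.117 to 0.601. Col28a1 (0.136 to 0.500 TPM), Col23a1 (0.0269 to 0.545), Col25a1 (0 to 0.146) and Col7a1, the anchoring fibril chain of skin (0.0247 to 0.170), were reported without a test, as were Col4a6, Col9a3, Col20a1, Col22a1 and Col11a1. They did not pass the filter on low counts. The 9 chains below the reported level were Col2a1, Col6a4, Col6a5, Col9a1, Col9a2, Col10a1, Col15a1, Col19a1 and Col26a1, and none exceeded 0.122 TPM in any library.

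**Figure D2:**
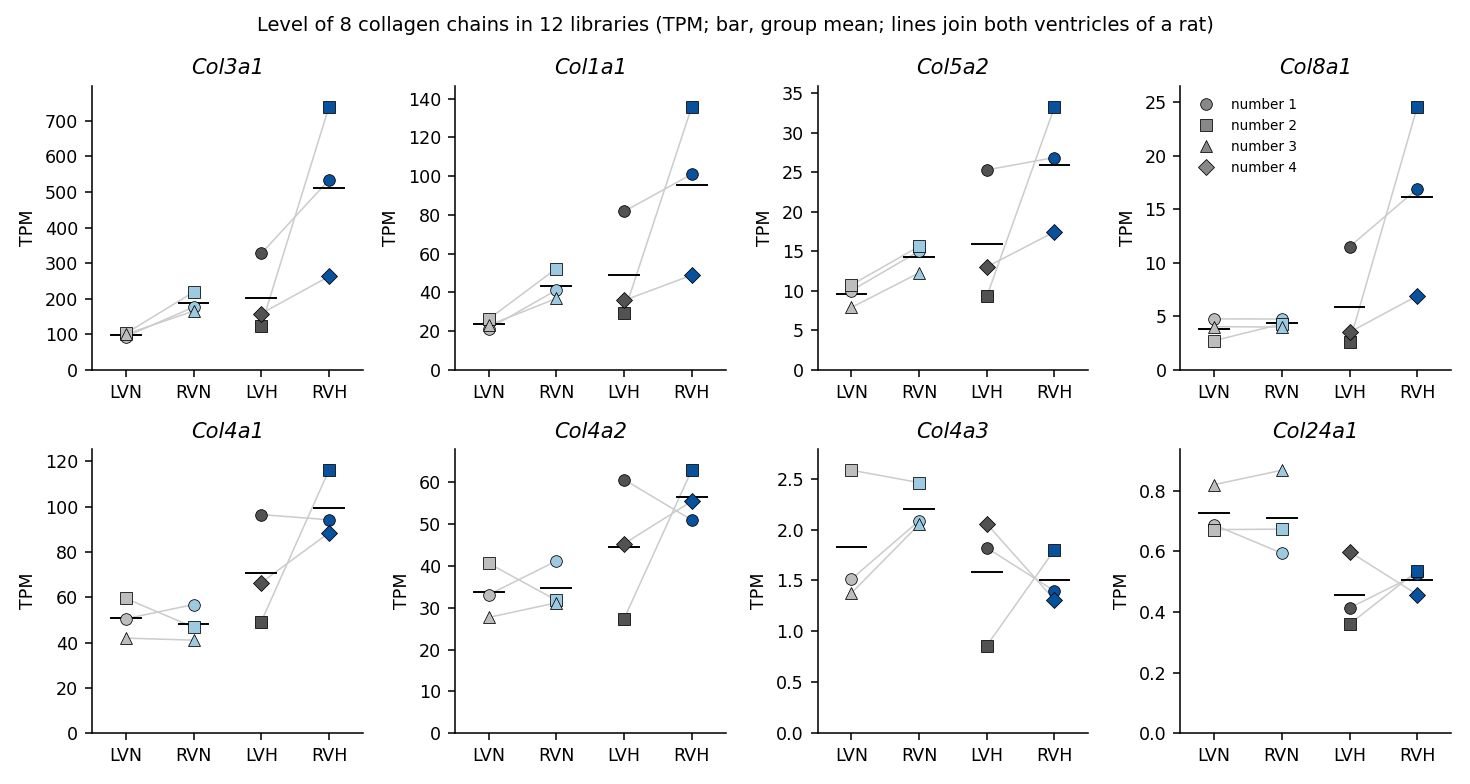
TPM of 8 collagen chains in 12 libraries by group (vertical axis from 0, linear); symbols give the rat's number within its exposure, bars the group mean, and grey lines join both ventricles of a rat. In Col3a1, Col1a1, Col5a2 and Col8a1 the RVH libraries 1 and 2 are high and RVH 4 is lowest of its group, while Col24a1 and Col4a3 are lower in RVH than in RVN.

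The hypoxic libraries kept nearly the same order in TPM across chains, and the typical gene shared part of it. RVH 2 was the highest of its group in 21 of the 24 tested chains and in 58.9% of all 13756 genes, and RVH 4 was the lowest in 22 chains and in 65% of all genes. In the left ventricle LVH 1 was the highest in 21 chains (69.9% of all genes) and LVH 2 the lowest in 22 (72.6%). After TMM scaling RVH 2 was highest in 14 chains (30.8% of all genes), RVH 4 lowest in 18 (34.3%), LVH 1 highest in 20 (35%) and LVH 2 lowest in 20 (37.4%).

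Sums of cell type markers in TPM followed the libraries too. Those of fibroblasts, activated fibroblasts, smooth muscle, pericytes, endothelium, macrophages, and cartilage and valve were lowest in both RVH 4 and LVH 2 within their groups. These sums were without TMM scaling. In such values RVH 4 was the lowest of its group in 65% of all genes and LVH 2 in 72.6%. The order of the marker sums is therefore in part that of the typical gene. The 7 activated fibroblast genes summed to 233, 213 and 71.2 TPM in RVH 1, 2 and 4 and 200, 45.1 and 57.8 in LVH 1, 2 and 4, against 42.5 to 113 in the normoxic libraries. The 11 fibroblast genes summed to 1975, 2175 and 1359 TPM in RVH and 2036, 1237 and 1611 in LVH. LVH 2 had the highest sums of its group for erythroid markers (30228 TPM, against 7423 and 16274) and atrial myocyte markers (3532 TPM, against 2306 and 1873). The part of these cells in the collagen values was not tested.

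The effect of hypoxia on the RV was the only one of the 5 comparisons with chains called by this test. Col4a1 rose 1.89-fold in RVH over RVN, which is 0.92 ± 0.17 in log2 (± standard error here and below; adjusted p = 0.00884 by edgeR's quasi-likelihood test). Col3a1 rose 2.45-fold, or 1.29 ± 0.30 (adjusted p = 0.0186), and Col8a1 rose 3.32-fold, or 1.73 ± 0.46 (adjusted p = 0.0299). Thus 3 of 24 chains were called higher, 1 each of the fibrillar, basement membrane and other classes, against 7.43% of all genes tested. No chain was called lower, where 7.6% of all genes were.

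Col4a1 was called in every alternative tried, with adjusted p up to 0.0392. The other calls were lost when any 1 of several libraries was left out, which also left fewer libraries in that group. Col3a1 was not called without RVN 1, RVN 3, RVH 1 or RVH 2 (adjusted p from 0.0635 to 0.0821), and Col8a1 was not called without any 1 of RVN 1, 2 or 3 or RVH 1 or 2 (0.076 to 0.124), nor in limma on log2 TPM (0.0609 and 0.0661). Their log2 fold changes in these fits were 1.03 to 1.27 and 1.39 to 1.81. Without RVH 4, which was low, 8 chains were called (7.98% of all genes), and without LVH 1, whose spread enters the shared model, 9 were (8.82%).

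Several chains had positive fold changes that missed the threshold. The log2 fold change of Col1a1 was 0.98 ± 0.32 (adjusted p = 0.0618), that of Col4a2 0.58 ± 0.20 (adjusted p = 0.0695), Col5a2 0.72 ± 0.25 (adjusted p = 0.0752), Col16a1 0.79 ± 0.28 (adjusted p = 0.0829) and Col4a5 0.45 ± 0.16 (adjusted p = 0.0854). The largest of them, named after their values were seen, were Col8a2 at 1.56 ± 0.57 (adjusted p = 0.0878) and Col12a1 at 1.51 ± 0.64 (adjusted p = 0.134). Each of edgeR's likelihood ratio and exact tests and DESeq2 called 6 chains, adding Col1a1, Col4a2 and Col5a2, and they called 8.84%, 8.43% and 8.75% of all genes higher.

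Of the 24 chains, 20 had a positive and 4 a negative log2 fold change in RVH over RVN, with a median of 0.57 against -0.003 for all genes. The negative ones, of which Col24a1, Col4a4 and Col11a2 were named after their values were seen, were Col4a3, at -0.67 ± 0.27 (adjusted p = 0.12), Col24a1, at -0.59 ± 0.29 (adjusted p = 0.184), Col4a4, at -0.34, and Col11a2, at -0.06. At an unadjusted p below 0.05, 11 chains were higher (15.1% of all genes) and 1 was lower (16.1%). After TMM scaling the RVH libraries of 10 chains lay wholly above RVN (18.7% of all genes) and those of 3 wholly below (20.1%), and the latter were Col4a3, Col4a4 and Col24a1.

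In the LV no chain was called in LVH over LVN, either higher (0.698% of all genes tested) or lower (0.669%). Unadjusted p was below 0.05 for 5 chains higher (8.72% of all genes) and 1 lower (8.87%). DESeq2 and the likelihood ratio and exact tests called 0 chains as well, with 2.28%, 2.03% and 1.89% of all genes called higher. The log2 fold change of Col3a1 was 0.82 ± 0.30 (adjusted p = 0.189), of Col1a1 0.84 ± 0.32 (adjusted p = 0.208), of Col4a1 0.29 ± 0.17 (adjusted p = 0.409) and of Col4a2 0.19 ± 0.20 (adjusted p = 0.649). After TMM scaling, LVH lay wholly above LVN for 4 chains, Col1a1, Col3a1, Col5a3 and Col6a2 (10.2% of all genes), and wholly below for 1, Col24a1 (11.3%). The median over the 24 chains was 0.51, with 21 positive and 3 negative, against 0.008 for all genes.

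The negative chains in the LV were Col24a1, at -0.79 ± 0.29 (adjusted p = 0.191), Col4a3, at -0.39, and Col4a4, at -0.16, of which Col4a3 and Col4a4 were named after their values were seen. All 3 were also negative in the RV. The most positive was Col12a1, at 1.77 ± 0.65 (adjusted p = 0.193), named after its values were seen, and it was 0.48 (adjusted p = 0.735) without LVH 1, the library at 1.63 TPM. Without that library the values were 0.46 for Col3a1, 0.43 for Col1a1, 0.13 for Col4a1 and 0.03 for Col4a2. Col8a1 changed direction without it, from a log2 fold change of 0.37 (adjusted p = 0.724) to -0.38 (adjusted p = 0.738), and over all alternatives its adjusted p was between 0.400 and 0.902.

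**Figure D3:**
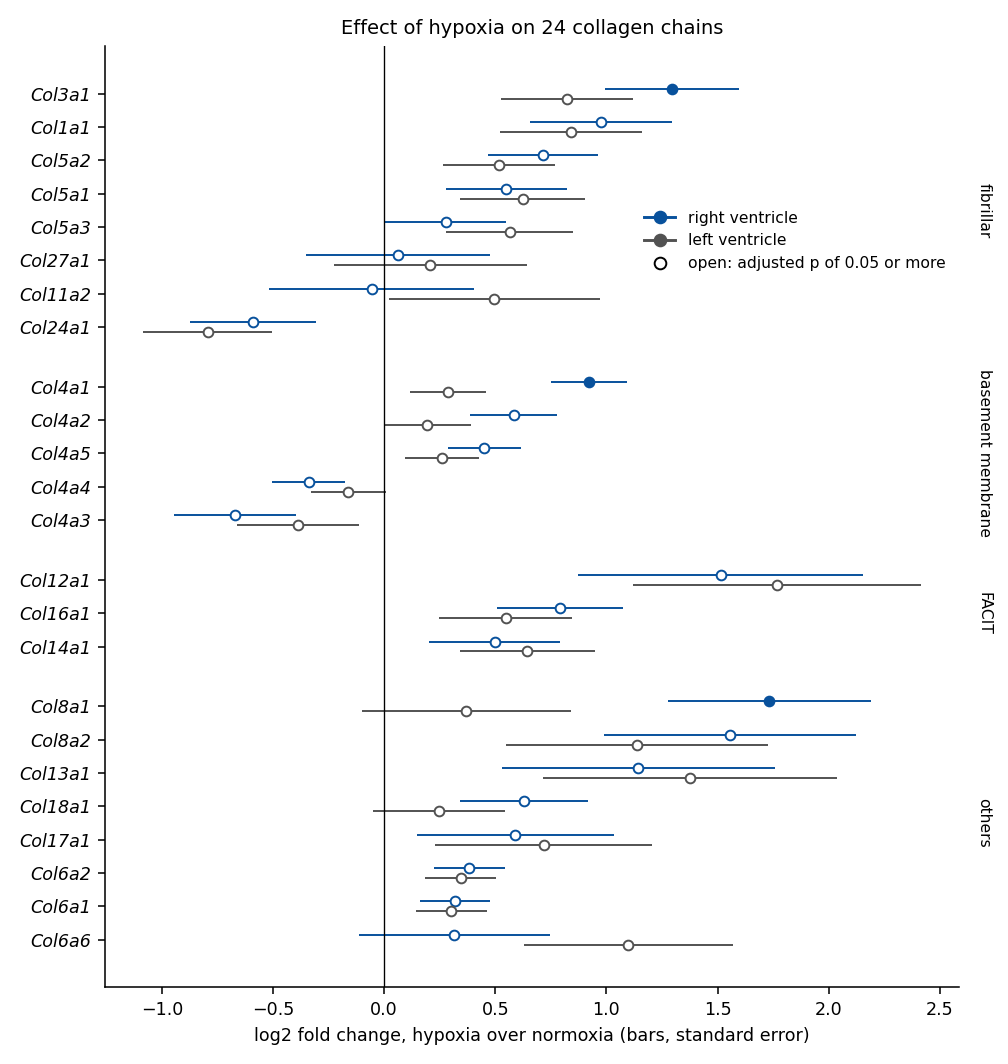
Log2 fold change of 24 collagen chains with hypoxia in the right ventricle (blue) and left ventricle (grey), by class, with bars for the standard error; filled points have an adjusted p below 0.05. Filled points are Col3a1, Col4a1 and Col8a1 in the right ventricle, and Col24a1, Col4a4 and Col4a3 lie below 0 in both ventricles.

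Whether hypoxia acted differently on the ventricles was tested as the difference of its effects, RV minus LV. No chain was called higher or lower, and 0% of all genes were called in either direction. An unadjusted p below 0.05 was reached by 1 chain in the direction of the RV (3.93% of all genes) and 0 in that of the LV (3.67%). It was Col4a1, with a difference of 0.63 ± 0.24 (unadjusted p = 0.0243, adjusted p = 0.597). The difference was 1.36 for Col8a1 (± 0.65, adjusted p = 0.661) and 0.47 for Col3a1 (± 0.42, adjusted p = 0.819), so the calls in the RV were not shown to differ from the LV. The median over the chains was 0.03, with 13 positive and 11 negative. Without LVH 1 the difference was 2.13 for Col8a1 (adjusted p = 0.241), 0.81 for Col4a1 (adjusted p = 0.299) and 0.86 for Col3a1 (adjusted p = 0.477). Neither the likelihood ratio test (0.138% of all genes higher) nor DESeq2 (0.0872%) called a chain.

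In normoxia no chain was called between the ventricles, higher in RVN (0.0145% of all genes) or lower (0.00727%), and DESeq2 and the likelihood ratio and exact tests, which called 0.247%, 0.429% and 0.32% of all genes higher, called 0 chains. The log2 fold change of RVN over LVN was 1.22 for Col6a6 (± 0.47, adjusted p = 0.456), 0.73 for Col3a1 (± 0.30, adjusted p = 0.486), and 0.36 for both Col6a1 (± 0.16, adjusted p = 0.531) and Col6a2 (± 0.16, adjusted p = 0.535). These were the 4 chains with an unadjusted p below 0.05 in the direction of the RV (4.78% of all genes), and 0 chains had one in the direction of the LV (4.51%). The median over the 24 chains was 0.36, with 19 positive, against 0.006 for all genes. After TMM scaling the RVN libraries of 9 chains lay wholly above LVN, where 9.92% of all genes did, and 0 lay wholly below (8.83%). Besides those 4 they were Col1a1, Col5a1, Col5a2, Col14a1 and Col17a1.

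Within hearts, RV TPM was above LV TPM in all 6 rats for Col3a1, Col1a1, Col5a2, Col5a3, Col6a2, Col16a1, Col17a1, Col18a1 and Col28a1. These values were without TMM scaling, and the share of all genes above in all 6 rats was not counted. The RV to LV ratio of Col3a1 was 1.88, 2.13 and 1.65 in normoxic rats 1, 2 and 3, and 1.63, 5.93 and 1.66 in hypoxic rats 1, 2 and 4. The ratio of Col4a1 was 1.12, 0.786 and 0.979 in normoxia, and 0.976, 2.36 and 1.33 in hypoxia. Hypoxic rat 2 thus stood apart for both chains in unscaled TPM, and its libraries had the outermost TMM factors, 1.206 in RVH 2 and 0.853 in LVH 2. In TPM, RVH 2 was the highest of its group in 58.9% of all genes and LVH 2 the lowest in 72.6%. In normoxia 15 of the 24 tested chains were higher in the RV of every rat, and so were 6838 of all 13756 genes in TPM. In hypoxia the numbers were 9 chains and 3426 genes.

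Between the hypoxic ventricles no chain was called higher (0.174% of all genes) or lower (0.276%), whereas an unadjusted p below 0.05 was found for 7 chains in the direction of RVH (8.48%) and 0 in that of LVH (8.24%). After TMM scaling, RVH lay wholly above LVH for 1 chain, Col4a1 (9.37% of all genes), and wholly below for 0 (8.46%). The log2 fold change of RVH over LVH was 1.21 for Col3a1 (± 0.30, adjusted p = 0.0931), 1.35 for Col8a1 (± 0.45, adjusted p = 0.168), 0.84 for Col1a1 (± 0.32, adjusted p = 0.218) and 0.38 for Col4a1 (± 0.17, adjusted p = 0.298), which were named after their values were seen. The median was 0.39, with 20 chains positive. The likelihood ratio and exact tests and DESeq2 each called 1 chain, Col3a1 (1.97%, 1.85% and 1.71% of all genes). Without LVH 1, 5 chains were called (Col1a1, Col3a1, Col5a2, Col8a1 and Col14a1), and 2.34% of all genes were called higher in that fit. In TPM without TMM scaling, LVH 1 had the highest sums of its group for fibroblast, activated fibroblast, smooth muscle, pericyte, endothelial, epicardial and macrophage markers. Its erythroid sum was the lowest. In such values LVH 1 was also the highest of its group in 69.9% of all genes, against 35% after scaling. A link of these sums to the calls was not tested.

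Ratios of chains within a library do not depend on how libraries are scaled. The TPM ratio of Col3a1 to Col1a1 was 5.28, 5.44 and 5.37 in RVH 1, 2 and 4, and lay between 3.92 and 4.48 in the other 9 libraries. LVH 1, whose level of Col3a1 was above that of RVH 4, had a ratio of 4.00. The ratio was therefore high in RVH 1 and 2 and also in RVH 4, the only RVH library with low collagen levels for its group. How many other ratios of genes set RVH apart in this way was not counted.

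The ratio of Col4a1 to Col4a2 was 1.39 ± 0.08 in RVN, 1.50 ± 0.03 in LVN, 1.76 ± 0.15 in RVH and 1.62 ± 0.17 in LVH (SD, n = 3). The RVH libraries lay above both normoxic groups, and LVH overlapped LVN. The ratio of Col4a1 to Col4a4, chosen after the values were seen, was 4.86 to 5.64 in RVN, 6.94 to 8.07 in LVN, 11.9 to 12.9 in RVH and 8.55 to 11.7 in LVH. These 4 ranges did not overlap, and how many other ratios of genes separate the groups in this way was not counted. The ratio of Col6a2 to Col6a1 stayed between 1.06 and 1.32 in all 12 libraries, and that of Col5a2 to Col5a1 between 1.37 and 1.81.

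**Figure D4:**
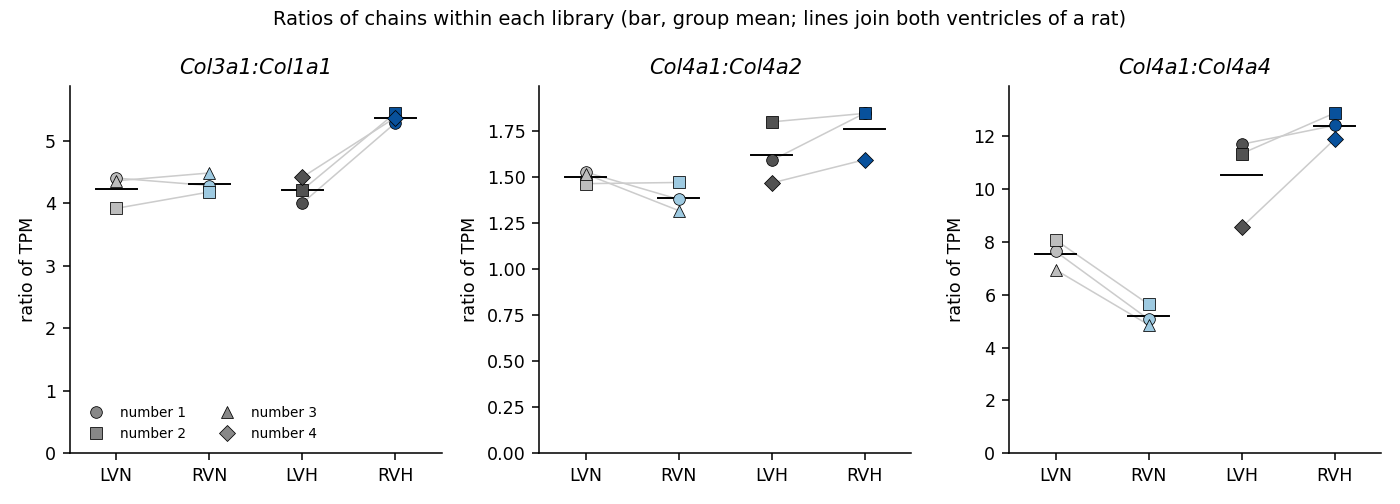
TPM ratio of Col3a1 to Col1a1, Col4a1 to Col4a2, and Col4a1 to Col4a4 in each of 12 libraries (vertical axis from 0); symbols give the rat's number within its exposure, bars the group mean, and lines join both ventricles of a rat. The RVH libraries sit between 5.28 and 5.44 for Col3a1 to Col1a1, above the 9 other libraries, and between 11.9 and 12.9 for Col4a1 to Col4a4.

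Collagen chains need enzymes and chaperones for folding, trimming and crosslinking, and 26 genes of a list of 29 were tested. In RVH over RVN 11 of them were called higher and 1 lower, where 7.43% of all genes were called higher and 7.6% lower, and their median log2 fold change was 0.50. Serpinh1, the collagen chaperone HSP47, rose by 1.01 ± 0.19 (adjusted p = 0.00966), and Ppib, a prolyl isomerase of the endoplasmic reticulum, by 0.57 ± 0.12 (adjusted p = 0.0115). Loxl1, a lysyl oxidase that crosslinks fibres, rose by 1.79 ± 0.39 (adjusted p = 0.0149), and Pcolce, the enhancer of the C-propeptide proteinase, by 1.07 ± 0.24 (adjusted p = 0.0177). Also called higher were the prolyl hydroxylases P4ha1, P3h1 and P3h3, the lysyl hydroxylases Plod1 and Plod2, Loxl2 and Bmp1. Mia3, which loads collagen for export, fell by 0.33 ± 0.08 (adjusted p = 0.0259). In the other 4 comparisons 0 of the 26 were called, where under 1% of all genes were called in either direction, so these counts do not set the list apart.

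Among collagen receptors, 6 of 10 listed genes were tested. Itgb1, the integrin beta chain of collagen-binding integrins, rose by 0.38 ± 0.10 (adjusted p = 0.0295) in RVH over RVN, and Ddr1, a receptor tyrosine kinase for collagen, by 0.51 ± 0.15 (adjusted p = 0.0414). The other 4 were not called. These 2 of 6 stand beside 7.43% of all genes called higher, and the 0 of 6 in the other comparisons beside under 1%.

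Markers of fibroblasts, the main makers of fibrillar collagen, moved in the same comparison. Of 11 fibroblast markers, 7 were called higher in RVH over RVN, among them Thy1, Pi16 and Dpt, and 1 was called lower, Gsn, beside 7.43% and 7.6% of all genes. The sum of the 11 was 1669 to 1927 TPM in RVN, 1181 to 1376 in LVN, 1359 to 2175 in RVH and 1237 to 2036 in LVH, so the RV groups overlapped, and Gsn held a large part of it with 880 ± 52.9 TPM in RVN and 492 ± 25.6 in RVH (SD, n = 3). Of 7 activated fibroblast markers, Fap and Cthrc1 were called higher, and of 9 macrophage markers 5 were. The smooth muscle and pericyte lists had 0 of 6 called each, and the endothelial list 1 of 7, Kdr, which was lower. Of 9 cardiac myocyte markers, Myh6 and Tnnt2 were lower. The epicardial list had 1 of 9 called higher (Prg4), the atrial myocyte list 1 of 5 (Nppa), the erythroid list 1 of 6 (Ahsp), the Schwann list 0 of 6 and the cartilage and valve list 0 of 2, with the cartilage marker Matn1 at 0 in all libraries. Counts of 0 or 1 in lists this short do not set a list apart from all genes. In the other comparisons the calls were Nppa, lower in RVN than LVN and higher in LVH than LVN, and, in RVH over LVH, Gsn lower and the macrophage markers Adgre1 and Aif1 higher. The part of these cell types in the collagen results was not tested.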

How the data were processed

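RNA-seq was done on 12 libraries of 6 rats. Stranded libraries of polyadenylated RNA were sequenced as single reads of 50 bp. The authors used kallisto 0.43.1 with the Ensembl transcriptome of Rnor 6.0 for quantification and tximport for gene-level values. Of 23553 entries in the deposited table, 27 with a number in place of a symbol (0.0408% to 0.0621% of a library) were left out. The TPM values, as deposited, are scaled for length and have 1 common total. The estimated counts that the authors deposited equal TPM times a constant per library (relative spread up to 8.8e-13), so their totals are nominal depths, and their precision is unknown beyond the spread between rats.

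Estimated counts were rounded, filtered with filterByExpr, scaled by TMM (factors 0.853 to 1.206) and tested with edgeR 4.0.16 in R 4.3.3, with 1 mean per group and 8 residual degrees of freedom. A standard error is the log2 fold change over the square root of F. The fit was tested on simulated independent counts with 1 dispersion for all genes. That simulation had no pairing of ventricles and no outlying library, so it does not show how the fit behaves with either. Figures were drawn with matplotlib 3.10.9, and tables made with pandas 2.3.3 and numpy 2.4.6 in Python 3.11.15. Alternatives were RLE factors, library totals, no filter, CPM of at least 1 in 3 libraries, the likelihood ratio and exact tests, DESeq2 1.42.0, limma 3.58.1 on log2(TPM + 1) and log2(TPM + 0.1), 6 libraries alone, blocks, and each library left out.

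The members and lists were chosen with earlier results of these data known. Every reported chain was named; fold changes are given for called chains, for up to 8 chains per comparison whose TPM did not overlap and whose unadjusted p was below 0.05, for Col1a1, Col3a1, Col4a1 and Col4a2 with hypoxia, and for others named as chosen after their values were seen. Both ventricles of a rat carry 1 number in the labels, and the pairing was checked by correlating residuals across genes (r from 0.037 to 0.213 within rats, from -0.184 to 0.042 between rats of the same exposure). Residuals were taken from group means, which pushes r between rats of an exposure down where r within rats is up. For rats of different exposures r reached 0.116, above the lowest r within rats. Between exposures numbers name different rats. Exposure was read from letters in the library titles. Promoter windows and gene starts are from RefSeq, assembly GRCr8, and differ in build from the expression table.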

Additional observations from a re-analysis of the deposited data

How the results depend on the processing

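Of 30 named fold changes followed through the alternatives, 677 of 678 fits kept the sign of the log2 fold change. Most of the 30 were named for a call, for groups that did not overlap, or after their values were seen. Such chains could hardly change sign, and many left-out libraries were not in the groups compared. The count therefore says little about chains near 0. The 30 left out Col4a4 and Col11a2 in RVH over RVN, and Col4a3 and Col4a4 in LVH over LVN. Col11a2 in RVH over RVN changed sign, from -0.06 to 0.04, with the replicate block by number. The exception among the 30 was Col8a1 in LVH over LVN, at -0.38 without LVH 1 and up to 0.65 without LVH 2. The medians over the chains moved by less than 0.435 in log2. That limit was the SD, within groups, of each library's median over the tested chains in TPM without TMM scaling. It is wide, since the medians were 0.36 for RVN over LVN and 0.39 for RVH over LVH. Either could have reached 0 within it. The number of chains called higher in RVH over RVN was 3, and it was 6 with the likelihood ratio test, 6 with the exact test, 6 with DESeq2 and 5 with the 6 libraries alone, which also called 1 lower, Col4a3. With a library left out it ranged from 1 to 9: 1 without RVN 1, RVN 3, RVH 1 or RVH 2 (Col4a1 each time), 8 without RVH 4 and 9 without LVH 1. The number called higher in RVH over LVH was 0, and it was 1 with the likelihood ratio test, 1 with the exact test, 1 with DESeq2, and 0 to 5 with a library left out, of which 1 without RVH 4 and 5 without LVH 1. With a TPM of at least 1 in 3 libraries, 19 chains would be reported, and 42 with no minimum. The causes were not tested.

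With the rat as a block, 0 chains were called in RVN over LVN, in RVH over LVH and in the difference of effects, as without it. A replicate block by number, which names different rats across exposures, called 4 chains in RVH over RVN, adding Col1a1 (adjusted p = 0.0294 by edgeR, 0.0133 to 0.228 over its alternatives), and 0 in LVH over LVN.

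With 3 rats per exposure, the spread between libraries limits what can be called, and the 9 reported chains that failed the count filter had no test.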
